A study of Mus musculus with 16 samples.

Results

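R-spondins are secreted proteins that raise the response of a cell to Wnt. The genes examined here are the 4 R-spondin ligands (Rspo1, Rspo2, Rspo3, Rspo4), their receptors Lgr4, Lgr5 and Lgr6, and Znrf3 and Rnf43, the ubiquitin ligases on which the ligand and receptor act together. They were taken from the expression table by gene symbol, 9 of its 23235 rows, and each symbol had a single row. RNA of sorted cells from mouse embryonic skin at embryonic day 14.5 was measured in 8 fractions with 2 libraries each. The labels name the fractions Pc, Epi, DC, Fb, Sch, Mc, DCSch and Neg without spelling them out. Background knowledge of such work gives the reading hair follicle placode, remaining epidermis, dermal condensate, dermal fibroblast, Schwann cell, melanocyte, condensate with Schwann cells, and a negative fraction. The labels used here state no strain, genotype, reporter allele or sorting marker. They also do not say whether replicates came from separate litters, so each p-value reflects the spread between these libraries alone, which may be technical.

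Znrf3 and Rnf43 sit in the cell membrane and mark Frizzled and Lrp receptors for removal, which lowers Wnt signalling. An R-spondin bound to an Lgr receptor draws the ligase off the surface, so that Frizzled receptors accumulate and a given amount of Wnt acts more strongly. Both ligase genes are themselves known Wnt targets, which makes them a negative feedback. Lgr5 is known as a marker of stem cells in the intestine and the adult hair follicle, Lgr6 as a marker of epidermal and follicle stem cells, Rspo1 for its part in ovary development and Rspo4 for its part in nail formation. At the stage studied the first hair placodes form in the epidermis above condensing fibroblasts, and Wnt signalling is required on both sides.

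The deposited values are FPKM, fragments scaled by transcript length and library size, and levels of different genes are set side by side on that scale. The RNA was amplified to cDNA first, and the effect of that step on comparisons between genes was not tested. The depth of the libraries is unknown. The fractions carried the markers of the cells they are read as. Summed over 8 keratinocyte genes, Pc and Epi measured 3892 to 5052 FPKM, Mc 705 and 494, and the other fractions 40.3 to 244. These genes did not separate Pc from Epi. Placode genes (6) summed to 194 and 241 FPKM in Pc and to 123 and 124 in Epi, a modest difference. Epidermal differentiation genes (6) summed to 470 and 174 in Pc and to 1960 and 1486 in Epi. The 8 fibroblast genes summed to 6546 and 5326 in Fb, 825 to 1376 in DC and DCSch, and 177 to 595 elsewhere. Condensate genes were highest in DC (3394 and 1779) and next in DCSch (868 and 880), Schwann cell genes in Sch (1919 and 2121) and next in DCSch (653 and 708), and melanocyte genes in Mc (7020 and 5569). Neg was led by erythroid genes (32229 and 35204 FPKM, against at most 209 in any other library). Next came genes of mast cells (1048 and 1226), fibroblasts (562 and 595), endothelium (409 and 294), skeletal muscle (350 and 247) and macrophages (161 and 146). In such bulk samples fewer cells of a type and less RNA per cell cannot be told apart.

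Rspo1 lies on chromosome 4 (124986430 to 125009099), Rspo2 on chromosome 15 (43020795 to 43170818), Rspo3 on chromosome 10 (29453107 to 29535867) and Rspo4 on chromosome 2 (151842927 to 151874668), as the table places them on mm10 with coordinates counted from 1. Lgr4 is on chromosome 2 (109917647 to 110014257), Lgr5 on chromosome 10 (115450314 to 115587780) and Lgr6 on chromosome 1 (134986353 to 135105276). Znrf3 (5276329 to 5444847) and Rnf43 (87663087 to 87735539) share chromosome 11. In the GENCODE vM21 annotation of the same build, the longest coding transcripts of the 3 receptor genes each have 18 exons, against 5 or 6 in the 4 ligand genes. Of the 9 genes only Rspo3 shares exon bases with another annotated gene, the antisense transcript gene Gm48159, over 404 of 3090 bases. Whether the counting used strand is not stated, so reads of the pair over those bases could not be told apart, and Gm48159 has no row of its own.

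The start regions of the fibroblast-high ligand Rspo1 and the epithelium-high receptor Lgr6 are shown because these genes stood high on opposite sides of the skin. RefSeq promoter entries (GRCm38.p6) matched 5 of the 9 genes, Rspo1, Rspo4, Lgr4, Lgr6 and Rnf43. The 250 bases before each start are printed 5′ to 3′ on the strand of the gene, plus for Rspo1 (chr4:124986180-124986429) and minus for Lgr6 (chr1:135105277-135105526), with CG dinucleotides in capitals.
Rspo1: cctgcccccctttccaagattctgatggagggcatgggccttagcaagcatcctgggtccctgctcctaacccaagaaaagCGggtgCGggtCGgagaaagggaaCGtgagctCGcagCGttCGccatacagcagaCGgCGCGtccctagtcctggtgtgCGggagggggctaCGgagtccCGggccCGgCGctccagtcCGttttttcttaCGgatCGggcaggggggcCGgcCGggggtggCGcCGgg
Lgr6: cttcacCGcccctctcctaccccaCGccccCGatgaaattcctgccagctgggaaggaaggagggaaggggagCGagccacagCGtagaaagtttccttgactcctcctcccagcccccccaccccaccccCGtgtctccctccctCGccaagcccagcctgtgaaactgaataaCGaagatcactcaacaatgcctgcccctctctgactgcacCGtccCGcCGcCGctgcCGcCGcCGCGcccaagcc
Both windows are rich in G and C, 66.8% with 22 CG dinucleotides for Rspo1 and 65.2% with 16 for Lgr6, against a median of 52.4% and 6 over 32841 promoters. The letters CTTTGA, the core that Tcf and Lef factors are known to bind, were searched on both strands. They did not occur in the 250-base windows of any of these 5 genes, while 13.8% of all promoters held them. With so few windows and so low a share, this absence is not a result about these genes.

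Rspo3 was the leading R-spondin of the dermal condensate. It measured 133 and 168 FPKM in the 2 DC libraries, 17.2 and 22.6 in Fb, and 13.4 and 37.1 in DCSch. The remaining libraries were far lower, with 1.89 ± 0.297 (SD, n = 2) in Neg, 1.40 and 2.01 in Mc, 1.33 and 1.87 in Sch, 0.527 and 1.28 in Pc, and 0.383 and 0.462 in Epi. In DC it ranked 403rd of the 23235 rows by mean FPKM. DC stood above all other libraries without overlap, Fb and DCSch overlapped each other, and both stood above the other 5 fractions.

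Rspo1 was the leading R-spondin of the fibroblast fraction, though Rspo3 was close to it in Fb replicate 2 (22.6 against 25.0 FPKM). Rspo1 measured 56.5 and 25.0 FPKM in Fb, so the replicates differed 2.26-fold, and both lay above every other library. A middle group held DCSch (5.52 and 2.94), Neg (3.11 and 4.96), DC (4.62 and 2.71) and Mc (3.78 and 2.88), whose libraries overlapped. The lowest were Pc (0.808 and 0.797), Sch (0.542 and 0.809) and Epi (0.670 and 0.381).

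Rspo2 and Rspo4 were nearly unmeasured at this stage. Rspo2 was listed at 0 in 11 of 16 libraries and reached at most 0.0762 FPKM, in DCSch replicate 2. Rspo4 was listed at 0 in 12 libraries and reached at most 0.0552, also in DCSch replicate 2. No fold is given against values listed at 0. Neither gene reached 1 FPKM in any library, so 7 of the 9 genes could be tested.

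Among the receptors, Lgr4 was the most widely measured, from 5.56 to 30.7 FPKM across all 16 libraries. It was highest in Pc (21.9 and 30.7), followed by Epi (17.8 and 18.2), Sch (12.9 and 21.3) and Neg (11.4 and 16.0). Lower values were found in Fb (7.39 and 9.28), DCSch (6.70 and 8.46), Mc (5.75 and 6.20) and DC (5.86 and 5.56). The condensate, highest in Rspo3, thus had the lowest mean of Lgr4, though not called below Mc, DCSch or Fb.

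Lgr5 was a gene of the fibroblast fraction here. Its libraries measured 9.55 and 9.27 FPKM in Fb and 1.76 and 2.14 in Neg, and all 12 others lay between 0.147 (Sch replicate 1) and 0.863 (Mc replicate 2). Pc and Epi, the fractions whose lineage forms the follicle that Lgr5 marks in the adult, measured 0.226 and 0.348, and 0.301 and 0.399.

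Lgr6 was a gene of the epithelial fractions. Pc held 6.55 and 5.03 FPKM, Epi held 3.62 and 1.59, and it stayed under 1 FPKM in the other 12 libraries, with the highest at 0.583 in DC replicate 1. The Pc libraries did not overlap with those of Epi.

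The ligases differed in breadth. Znrf3 was measured in every fraction, at 19.3 and 23.0 FPKM in Pc, 17.3 and 18.9 in Epi, and between 5.26 and 7.80 in the other 12 libraries. For Rnf43, Pc held 13.9 and 8.96 and Epi 11.9 and 9.40, and it lay between 0.0679 and 1.04 elsewhere. The highest of those was Mc replicate 1 at 1.04, against 0.152 in Mc replicate 2, and Sch replicate 1 was likewise above replicate 2 (0.107). The summed keratinocyte genes were also higher in the first replicate of both, 705 against 494 in Mc and 244 against 42.7 in Sch, and their part in these values was not tested.

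**Figure D1:**
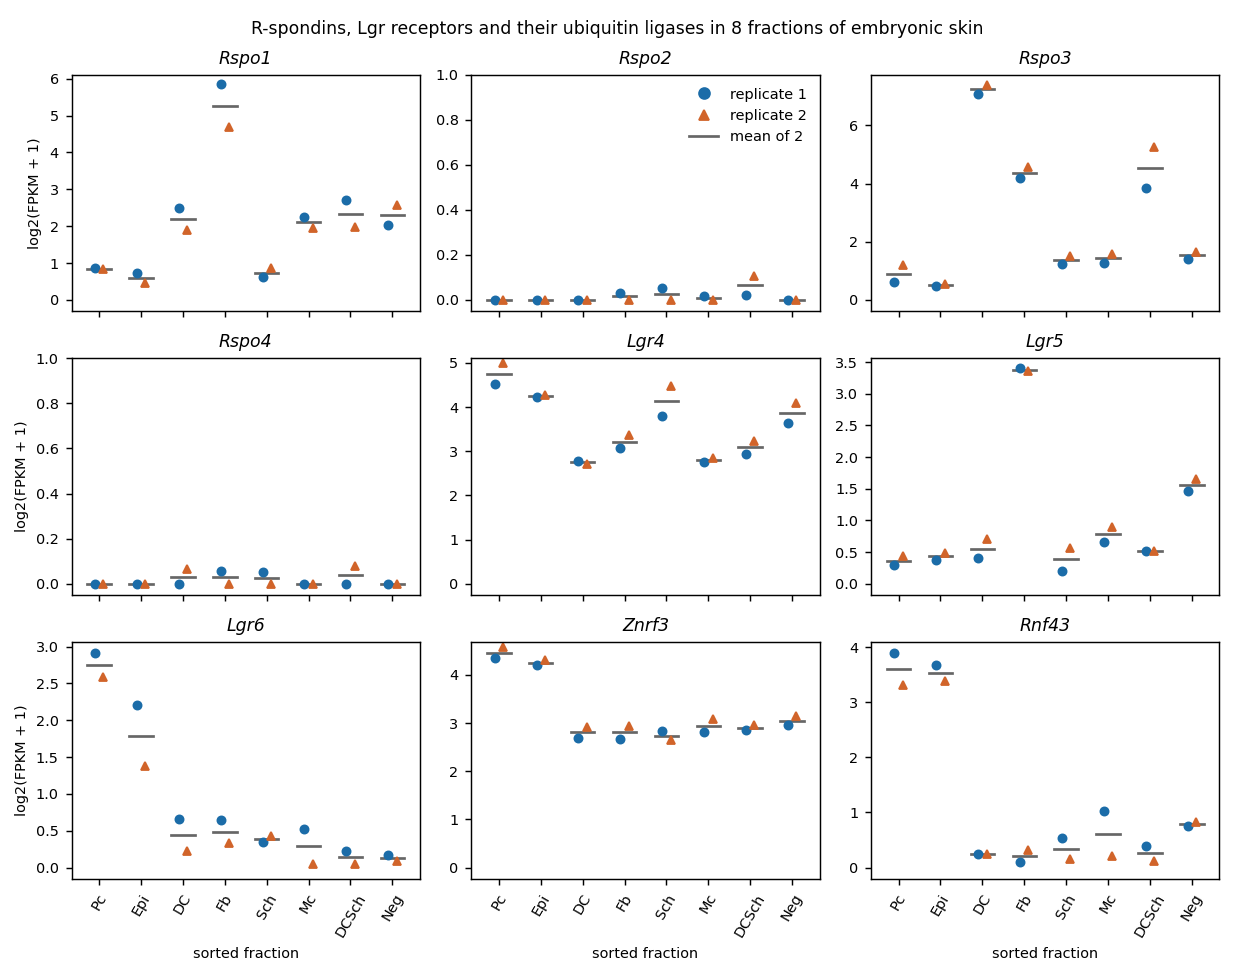
Level of each of the 9 genes on the log2(FPKM + 1) scale (y axis) in the 8 sorted fractions (x axis). Circles are replicate 1, triangles replicate 2 and lines the mean of both. Rspo3 peaks in DC, Rspo1 and Lgr5 in Fb, and Lgr6, Znrf3 and Rnf43 in Pc and Epi, while Rspo2 and Rspo4 lie at or near 0.

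Summing FPKM within each family shows how its members divide a fraction. The 4 ligands summed to 138 and 171 FPKM in DC, of which Rspo3 made up 96.7% and 98.4%. In Fb the sum was 73.7 and 47.6, with Rspo1 at 76.6% and 52.5% and Rspo3 nearly all of the rest. In Pc and Epi the ligands summed to between 0.843 and 2.07. The receptors summed to 28.6 and 36.1 in Pc, 21.7 and 20.2 in Epi, 17.5 and 18.8 in Fb, but 6.77 and 6.37 in DC. Lgr4 made up 76.3% to 90.2% of that sum in Pc and Epi, and Lgr6 7.88% to 22.9%. In Fb the sum was split between Lgr4 (42.2% and 49.3%) and Lgr5 (54.6% and 49.3%), and in Sch Lgr4 made up 96.8% and 96.3%. Rnf43 made up 28.1% to 42.0% of the ligase sum in Pc and Epi, and 1.24% to 14.7% in the other 12 libraries. These sums are descriptions and were not tested.

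**Figure D2:**
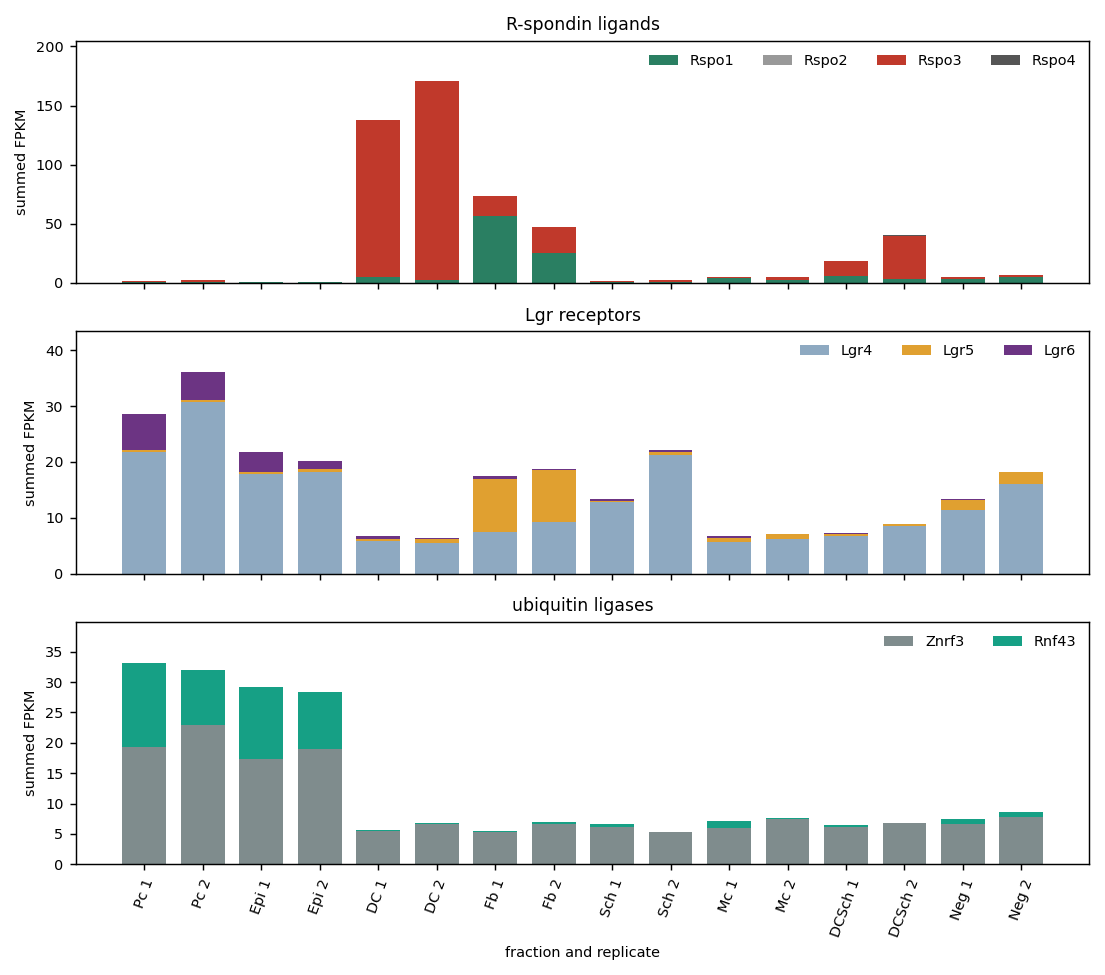
FPKM of the ligands (top), receptors (middle) and ligases (bottom) stacked by gene for each of the 16 libraries (x axis, fraction and replicate), each panel with its own linear axis starting at 0. The ligand bars are tallest in DC (138 and 171) and between 0.843 and 2.07 in Pc and Epi, where the ligase bars are tallest (28.3 to 33.2).

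Differences between fractions were tested with limma on log2(FPKM + 1), with 1 mean per fraction over all 16 libraries and p-values adjusted over 14171 rows. The call needed an adjusted p below 0.05 together with a log2 difference of 1 or more, on a scale that understates the change of genes with low FPKM. All 7 tested genes differed among the 8 fractions. Of all rows 51.6% did, so this count is not a result about these genes. The adjusted p of the limma F-test ran from 3.03e-07 (Rspo3) to 0.000204 (Lgr4).

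In 3 of these genes a single fraction stood above each other one. DC was so for Rspo3, by at least 2.69 log2 units (largest limma adjusted p = 0.00108), as for 1.16% of all rows. Fb was so for Rspo1, by at least 2.93 (largest limma adjusted p = 0.000285), and for Lgr5, by at least 1.82 (largest limma adjusted p = 2.19e-05), as for 1.59% of rows. Lgr6, Znrf3 and Rnf43 were highest in Pc and second in Epi. For them Pc and Epi were each higher than each of the other 6 fractions, as for 2.58% of all rows. Lgr6 reached 1 FPKM only in Pc and Epi, Rnf43 only there and in Mc replicate 1, and Lgr5 only in Fb and Neg. Lgr5, Lgr6 and Rnf43 thus passed the filter of 1 FPKM in 2 or more libraries through fractions where they were high. That limit also holds for their calls below. Lgr4, also highest in Pc, was called above Fb, Mc, DC and DCSch but not above Epi, Sch or Neg.

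For each gene the fractions were put in order of level. The order was taken from the same values as the steps along it, so counts of steps are a description. Down that order, 8 of the 49 steps between neighbouring fractions were called, where 3.61% of such steps were over all rows. They were the step below Fb and the step from Mc to Pc for Rspo1, the steps below DC and below Fb for Rspo3, the step below Fb for Lgr5, and the step below Epi for Lgr6, Znrf3 and Rnf43. The Rspo1 step from Mc to Pc (1.26, limma adjusted p = 0.0351) was lost with no filter, with quantile normalization, and without either Pc or either Mc library (limma adjusted p from 0.0604 to 0.182). The Lgr6 step was lost without Epi replicate 1 (0.89). No neighbouring step was called for Lgr4, whose levels graded from Pc to DC. Libraries did not overlap in 17 of the 49 steps, against 24.1% of steps over all rows, among them Lgr5 in Neg above Mc (log2 difference 0.78, 95% interval 0.37 to 1.18, limma adjusted p = 0.00972), which was under the minimum size.

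Comparing placode with the remaining epidermis, no member was called, where 1.52% of all rows were. At an unadjusted limma p under 0.05 there was 1, Lgr6, with a log2 difference of 0.96 (SE 0.28, 95% interval 0.36 to 1.56, limma adjusted p = 0.148). Its limma adjusted p was 0.0171 with a replicate term, still without a call because the difference was under 1. Lgr4 was higher in Pc by 0.50 log2 units (95% interval -0.08 to 1.09) and Znrf3 by 0.21 (-0.24 to 0.65). Rspo1 and Rspo3 differed by 0.25 (-0.59 to 1.08) and 0.39 (-0.46 to 1.24), Rnf43 by 0.08 (-0.55 to 0.71) and Lgr5 by -0.07 (-0.47 to 0.34). The median over the 7 genes was 0.25, and the median of all rows lay within 0.01 of 0.

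Condensate and fibroblasts differed in both ligands that were measured and in 1 receptor. Rspo3 was higher in DC by 2.86 log2 units (SE 0.39, limma adjusted p = 0.000217), with DC libraries at 777% and 743% of the same-numbered Fb libraries. Rspo1 was lower in DC by a log2 difference of -3.08 (SE 0.38, limma adjusted p = 0.000117), at 8.19% and 10.9% of Fb. Lgr5 was lower by -2.83 (SE 0.19, limma adjusted p = 1.30e-06), at 3.35% and 6.79% of Fb. These 3 of 7 stand beside 15.3% of all rows. Lgr4 (-0.47, 95% interval -1.05 to 0.12), Lgr6 (-0.04, -0.64 to 0.56), Znrf3 (0.00, -0.44 to 0.44) and Rnf43 (0.04, -0.59 to 0.67) were not called. Of 8 fibroblast genes measured the same way, DC held 1.78% to 70.5% of Fb in replicate 1 and 1.49% to 68.1% in replicate 2. Their medians were 15.2% and 13.8%. The low values of Rspo1 and Lgr5 fell within that wide range, and below the median in both replicates.

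Between epidermis and fibroblasts all 7 tested genes were called, against 24.5% of all rows. The ligands and Lgr5 were lower in Epi, with log2 differences of -4.67 for Rspo1 (SE 0.38, limma adjusted p = 2.24e-06), -3.86 for Rspo3 (SE 0.39, limma adjusted p = 1.02e-05) and -2.95 for Lgr5 (SE 0.19, limma adjusted p = 3.55e-07). The ligases and the other receptors were higher in Epi. Rnf43 led with 3.33 (SE 0.29, limma adjusted p = 3.25e-06), followed by Znrf3 with 1.45 (limma adjusted p = 0.000132), Lgr6 with 1.31 (limma adjusted p = 0.00284) and Lgr4 with 1.03 (limma adjusted p = 0.0101). The Lgr4 call was lost with libraries rescaled to the same total (0.78, where the median of all rows moved to -0.20), without either Epi library (1.05 and 1.02) and without Fb replicate 1 (0.89). Lgr6 lost it without Epi replicate 1 (0.89).

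Placode and condensate, which face each other in the follicle primordium, repeated that division for 6 of 7 genes, where 27.5% of all rows were called. Rspo3 was lower in Pc by a log2 difference of -6.34 (SE 0.39, limma adjusted p = 2.21e-07), the widest of any member in the 8 comparisons described here. Rnf43 (3.36), Lgr6 (2.31), Lgr4 (2.00) and Znrf3 (1.65) were higher in Pc, with limma adjusted p from 2.64e-06 to 9.05e-05. Rspo1 was lower in Pc (-1.34, limma adjusted p = 0.0156) but lost the call without Pc replicate 1, Pc replicate 2 or DC replicate 1, with limma adjusted p of 0.0649, 0.0668 and 0.113. Lgr5, low on both sides, differed by -0.19 (95% interval -0.60 to 0.22) and was not called.

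**Figure D3:**
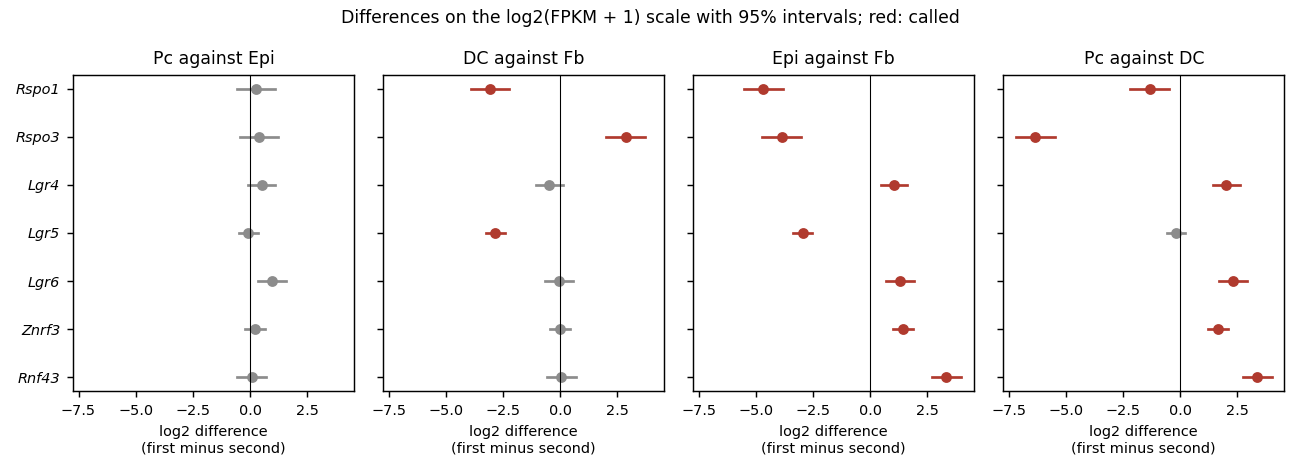
Log2 differences of the 7 tested genes (x axis, first fraction minus second, log2(FPKM + 1) scale) in 4 comparisons, with points for the estimate and lines for the 95% interval, in red where called. No gene is red for Pc against Epi, while all 7 are for Epi against Fb, the ligands and Lgr5 to the left and the ligases, Lgr4 and Lgr6 to the right.

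Whether the follicle differs from its surroundings by the same amount in epithelium and in dermis was tested as (Pc - Epi) minus (DC - Fb), which called 3 of 7 members and 14.1% of all rows. Rspo1 gave a difference of 3.33 log2 units (SE 0.54, limma adjusted p = 0.00139) and Lgr5 of 2.76 (SE 0.26, limma adjusted p = 4.06e-05), both lower in DC than in Fb, with Pc and Epi 0.25 and -0.07 apart. All 3 genes lay near or below 1 FPKM in Pc and Epi (at most 0.808 for Rspo1, 0.399 for Lgr5 and 1.28 for Rspo3) and passed the filter through other fractions. With a pseudocount of 1 their epithelial term had little room to move, so these values largely restate the difference between DC and Fb. Rspo3 gave -2.47 (SE 0.55, limma adjusted p = 0.00920), being higher in DC than in Fb, though the limma adjusted p was 0.0720 with a pseudocount of 0.1. Lgr6 (limma adjusted p = 0.120) was called only with a replicate term (limma adjusted p = 0.0215) and without Epi replicate 1 (1.42, limma adjusted p = 0.0260).

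Among the fractions of neural crest origin, Schwann cells carried more Lgr4 and melanocytes more Rspo1. For Mc against Sch the log2 difference was -1.33 for Lgr4 (SE 0.27, limma adjusted p = 0.00423) and 1.37 for Rspo1 (SE 0.38, limma adjusted p = 0.0313), 2 of 7 where 11.8% of all rows were called. The Lgr4 call was lost without Sch replicate 2 (-0.99). The Rspo1 call was lost without any 1 of the 4 libraries, with limma adjusted p from 0.0857 to 0.173, and with no filter on low values (limma adjusted p = 0.0838). The 8 fibroblast genes summed to 349 and 234 FPKM in Mc and 334 and 240 in Sch. Rspo1 in Mc stood at 6.69% and 11.5% of Fb in the same-numbered libraries. Single fibroblast genes there ranged from 3.61% to 26.3% in replicate 1 and from 2.49% to 30.6% in replicate 2. The part of fibroblast RNA in the Rspo1 difference was not tested. Against Sch, DC was higher in Rspo3 (5.87, limma adjusted p = 6.89e-07) and Rspo1 (1.45, limma adjusted p = 0.0143) and lower in Lgr4 (-1.39, limma adjusted p = 0.00196), 3 of 7 where 19.2% of all rows were called. Here too the Rspo1 call was lost without DC replicate 1 (limma adjusted p = 0.116) or Sch replicate 1 (limma adjusted p = 0.0852).

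In the joint fraction DCSch, Rspo3 stood nearer to its Schwann cell level than the median condensate gene did. From Sch to DC, Rspo3 in DCSch stood 9.12% of the way in replicate 1 and 21.2% in replicate 2. Measured the same way, 8 condensate genes stood at medians of 30.2% and 49.1%. Sox18, a transcription factor of the condensate, had a similar place to Rspo3 (9.83% and 29.8%), while Bmp4, a growth factor, stood at 38.8% and 49.7%. The other members called between DC and Sch stood near or past DC, Rspo1 at 122% and 112% and Lgr4 at 88.0% and 81.5%. For 8 Schwann cell genes the medians were 68.5% and 70.9%. The difference between Rspo3 and these genes is a description with no test. Between DC and DCSch themselves Rspo3 was called (2.69, SE 0.39, limma adjusted p = 0.00108), as were 6.20% of all rows in either direction.

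In the negative fraction, Rspo1, Rspo3 and Lgr5 were lower than in fibroblasts, 3 of 7 where 15.5% of all rows were called. The log2 differences of Neg against Fb were -2.97 for Rspo1 (limma adjusted p = 0.000133), -2.84 for Rspo3 (limma adjusted p = 0.000203) and -1.82 for Lgr5 (limma adjusted p = 2.19e-05). The erythroid sums above moved with this comparison, and their part in it was not tested. Fibroblast genes were present in Neg at medians of 8.13% and 12.0% of Fb in the same-numbered libraries. Rspo3 stood at 9.80% and 9.30%, close to that median. Lgr5 stood at 18.4% and 23.1%, above 7 of the 8 fibroblast genes in both replicates and below Dpp4, a surface peptidase (63.3% and 85.9%). Rspo1 stood at 5.50% and 19.8%, below the median in one replicate and above it in the other. Lgr4 (0.65, 95% interval 0.06 to 1.23, limma adjusted p = 0.120), Znrf3, Rnf43 and Lgr6 were not called.

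**Figure D4:**
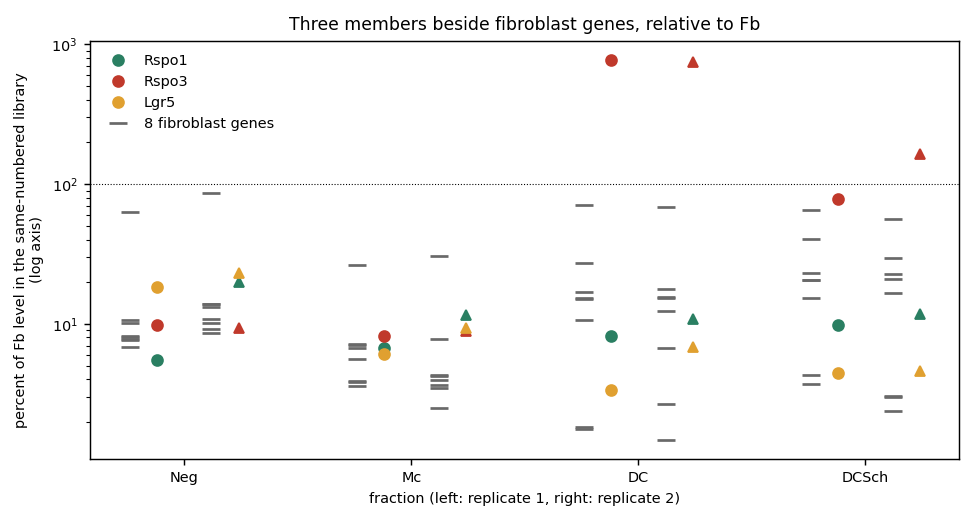
Levels of Rspo1, Rspo3 and Lgr5 (circles replicate 1, triangles replicate 2) and of 8 fibroblast genes (grey dashes) in 4 fractions, as a percent of the Fb library with the same number (y axis, log scale, dotted line at 100). Rspo3 stands at 777% and 743% in DC, while Rspo1 and Lgr5 stay below 24% in all 4 fractions.

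Other genes of the pathway were read from lists chosen with earlier results of these data known. Among Wnt ligands, 16 of 19 were tested. None was called between Pc and Epi, where 1.52% of all rows were. In DC against Fb 4 were lower, where 15.3% of all rows were called in either direction. In Epi against Fb 10 were higher and 5 lower, where 24.5% of all rows were called. In Pc against DC 10 were higher and 3 lower, where 27.5% of all rows were called. Wnt3 measured 24.5 ± 4.08 FPKM (SD, n = 2) in Epi and 0.653 ± 0.538 in Fb, whereas Wnt5a measured 1.45 ± 1.10 and 105 ± 26.4. The median of the list was 1.81 for Epi against Fb and 2.33 for Pc against DC, with the median of all rows within 0.02 of 0.

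Of the Frizzled and Lrp receptors that Znrf3 and Rnf43 clear from the surface, 11 of 12 were tested. In Epi against Fb 2 were higher, Fzd6 (51.0 ± 5.08 against 5.11 ± 0.145 FPKM) and Fzd10 (16.0 ± 0.812 against 2.45 ± 0.657), and 3 were lower, led by Fzd1 (7.84 ± 1.93 against 46.3 ± 0.135). In DC against Fb 4 were lower (Fzd1, Fzd4, Fzd7, Fzd6) and none higher. In Pc against DC 4 were higher and 1 lower, and between Pc and Epi none was called. Of all rows, 24.5% were called for Epi against Fb and 15.3% for DC against Fb. For Pc against DC 27.5% were, and for Pc against Epi 1.52%.

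Syndecans and glypicans are cell surface proteoglycans, some of which bind R-spondins, and 9 of 10 on the list were tested. In DC against Fb 2 were higher and 3 lower, where 15.3% of all rows were called. Sdc1 measured 218 ± 48.9 FPKM in DC and 36.6 ± 3.24 in Fb, a log2 difference of 2.53 (SE 0.18, limma adjusted p = 2.29e-06), and Gpc3 95.4 ± 14.1 against 358 ± 27.3. In Pc against DC 1 was higher, Sdc4 (73.0 ± 8.49 against 10.1 ± 0.753), and 4 were lower, where 27.5% of all rows were called.

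Of 16 tested targets 4 were higher and 9 lower in Epi than in Fb, with a list median of -2.07, where 24.5% of all rows were called. In Pc against DC 4 were higher and 9 lower, with a median of -1.58, where 27.5% of all rows were called. In Pc against Epi 1 was higher, Dkk4 (19.1 ± 1.37 against 4.16 ± 0.545 FPKM), and 1 lower, Sp6 (4.57 ± 1.97 against 17.6 ± 1.85). Their log2 differences were 1.96 and -1.78 (limma adjusted p = 0.000346 and 0.0373), where 1.52% of all rows were called. The widest in Epi against Fb were Twist1 (-6.13), Kremen2 (4.90) and Wif1 (-4.25). The part of cell lineage, apart from Wnt response, in these medians was not tested. Axin2, a feedback target common to many tissues, measured 54.8 and 40.3 FPKM in DC, 66.2 and 42.0 in Sch, 36.1 and 18.6 in Fb, 19.6 and 13.6 in Pc, 21.0 and 18.7 in Epi, and 9.72 and 6.33 in Neg. Nkd1, another feedback inhibitor, measured 70.9 and 46.8 in DC and 0.799 and 0.472 in Pc. Kremen2, which encodes a receptor for Dkk inhibitors, went the other way, with 88.3 ± 33.8 FPKM in Pc and 0.597 ± 0.172 in DC, the widest difference of the list there (5.75, limma adjusted p = 8.16e-06). In DC against Fb 3 targets were higher and 3 lower, where 15.3% of all rows were called. Of 16 intracellular pathway genes, Lef1 (139 ± 25.4 against 23.7 ± 4.79 FPKM) and Ctnnb1, which encodes beta-catenin, were higher in DC than in Fb and none was lower. These 2 of 16 stand beside the same 15.3%, so their count is not a result about that list.

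The genes whose pattern was most like each member were found by Pearson's r of log2(FPKM + 1) over the 16 libraries, among 8622 rows. The libraries come in replicate groups, so a gene high in the same fraction is bound to give a high r, and no p is given. For Rspo3 they were Amot (0.989), the leptin receptor gene Lepr (0.982) and Icosl (0.980), all highest in DC. For Rspo1 they were Zfp385b (0.955), Adam33 (0.952) and the adhesion gene Vcam1 (0.948), and for Lgr5 Lox, of collagen crosslinking (0.980), C1qtnf3 (0.977) and the angiotensin receptor gene Agtr2 (0.973), all highest in Fb. Lgr6 was most like Edar, the ectodysplasin receptor (0.965), Dkk4, a Wnt inhibitor (0.964), and Wnt6 (0.961). Rnf43 was like Cdcp1 (0.990) and Ap1m2 (0.984), Znrf3 like Wnt7a (0.979), Serpinb10 (0.978) and Cdcp1 (0.972), and Lgr4 like Ctgf (0.923), Il13ra1 (0.920) and Psmd5 (0.905).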

How the data were processed

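RNA of sorted fractions of mouse skin at embryonic day 14.5 was measured in 8 fractions with 2 libraries each. Per the labels' protocols, sorted-cell RNA was amplified to cDNA before the libraries were made. The authors deposited 1 table of FPKM values. TopHat2 2.0.3, Bowtie2, Cufflinks 2.1.1 and the build mm10 are named in, and credited to, the submitters' processing notes, without settings. The file gives no counts, so no count test was run and depth is unknown.

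Values were moved to log2(FPKM + 1). A limma model (version 3.58.1, R 4.3.3) took the 14171 rows that reached 1 FPKM in 2 or more libraries, with 1 mean per fraction over all 16 libraries, a trended and robust spread, and Benjamini-Hochberg adjustment over all rows tested. The script was tested on simulated data. All 28 pairs of fractions and 1 interaction were read from that fit. All 9 members are named, with up to 4 called genes per pathway list and comparison and the 3 most similar genes per tested member, of which 1 is not reported here. Axin2, and which list genes are quoted with values, were chosen after values were seen. The members and lists were chosen with earlier results of these data known. Same-numbered libraries deviated together in all 28 pairs of fractions (correlations across genes from 0.148 to 0.656), so the numbers were read as pairing the samples, and a model with a replicate term was an alternative. The others were a pseudocount of 0.1, no filter, a filter at 5 FPKM, a rescaled total, quantile normalization, only the compared libraries, and each library left out. FPKM totals ran from 439201 to 606437.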

Additional observations from a re-analysis of the deposited data

Results flagged for a closer look

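For Rspo1, Rspo3 and Lgr5 the test of a difference between epithelium and dermis passed the threshold. The difference of Pc against Epi minus that of DC against Fb was 3.33 log2 units for Rspo1, -2.47 for Rspo3 and 2.76 for Lgr5, where limma called 14.1% of all rows. All 3 genes lay near or below 1 FPKM in Pc and Epi, so with a pseudocount of 1 the epithelial term had little room to move. With a pseudocount of 0.1 the values were 3.94 for Rspo1, 3.88 for Lgr5 and -2.08 for Rspo3, the last no longer called (limma adjusted p = 0.0720).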

How the results depend on the processing

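Of the 56 differences of a member in a comparison, 27 were called, where the share of all rows called ran from 1.52% to 27.5% by comparison. Of these 27, 20 kept the call under every alternative run. The other 7 lost it under at least 1 and none changed sign. Of the 29 not called, 1 was called somewhere, Lgr6 in the interaction. The count of members called for Mc against Sch was 2, and 1 with no filter on low values, and ranged from 0 to 1 with a library left out; the other counts stayed within 1.5 times. With the replicate block the counts were 0 for Pc against Epi, 3 for DC against Fb, 7 for Epi against Fb, 6 for Pc against DC, 2 (Mc and Sch), 3 (DC and Sch), 3 (Neg and Fb) and 4 for the interaction; it changed no call other than that of Lgr6 there. With a library left out, its partner is assumed to vary like the other fractions. With 2 libraries a fraction and unknown depth, levels below about 1 FPKM are uncertain, and Rspo2 and Rspo4 gave no test.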
